A study of Mus musculus with 20 samples.

Results

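Complex I (NADH:ubiquinone oxidoreductase) is the largest enzyme of the mitochondrial respiratory chain. It takes electrons from NADH in a peripheral arm that reaches into the matrix, passes them along iron-sulfur clusters to ubiquinone, and pumps protons through a membrane arm. Its membrane core is encoded by mtDNA (*mt-Nd* genes), and all other subunits, together with the assembly factors that build the enzyme and then leave it, are encoded in the nucleus, so in β-cells, where glucose oxidation drives insulin release, a working complex needs mRNAs from both genomes.

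The genes described here are all protein-coding genes whose symbol starts with Nduf in the deposited gene counts, 46 of the 28632 genes in the table. By symbol, 38 are subunits (*Ndufa*, *Ndufb*, *Ndufc*, *Ndufs* and *Ndufv*) and 8 are assembly factors (*Ndufaf*). Of the 38, *Ndufa4* and its paralog *Ndufa4l2* carry the name for historical reasons, since *Ndufa4* is now placed in cytochrome c oxidase, which leaves 36 structural subunits, 7 of them core subunits that carry cofactors or help bind the substrates and 29 accessory. By their known place, 16 of the 36 lie in the peripheral arm, 9 in the part of the membrane arm near the joint, 10 in its far part, and *Ndufab1*, the mitochondrial acyl carrier protein, in both arms. Another 5 symbols with this start are annotated as pseudogenes or other non-coding genes and were left out. No member had a count of 0 in any library, and all 46 passed edgeR's filter on low counts (filterByExpr).

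Bulk RNA sequencing was performed on pancreatic islets of mice aged 12 weeks. The 20 libraries fall into 6 Ctrl, 4 β-Mfn1KO, 5 β-Mfn2KO and 5 β-Mfn1/2DKO, with both sexes in every group. The knockout groups carried *Mfn1* loxP/loxP, *Mfn2* loxP/loxP or both, each together with Ins1-Cre, which removes the floxed exons in cells that express insulin 1. Other islet cells therefore kept both genes. The labels give the knockouts as Mfn1-/-, Mfn2-/- and Mfn1-/-;Mfn2-/-, and the controls as wild type, while the methods of the study combine animals that carried only Ins1-Cre with animals that carried only the floxed alleles. *Mfn1* and *Mfn2* encode the mitofusins, GTPases of the outer mitochondrial membrane that fuse mitochondria.

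Total counts per library ran from 12400687 to 20329064 in Ctrl, 15745680 to 16685381 in β-Mfn1KO, 15110046 to 59533407 in β-Mfn2KO and 65533388 to 122947313 in β-Mfn1/2DKO, so that depth and loss of both genes cannot be told apart. The 46 members took 0.224% to 0.257% of all counts in Ctrl and 0.204% to 0.272% in β-Mfn1/2DKO. A list of 10 β-cell genes took 14.1% to 21.9% of the counts in Ctrl and 6.57% to 9.62% in β-Mfn1/2DKO, while a list of 4 α-cell genes took 1.49% to 4.89% and 3.46% to 5.45%. Fewer β-cells and less RNA of these genes per β-cell cannot be told apart in such bulk samples. The study reported that β-cell mass did not differ significantly among its genotypes, in younger mice. Acinar enzyme genes took 0.0461% to 0.30% in Ctrl and 0.0774% to 7.60% in β-Mfn1/2DKO, highest in replicates 4 and 5. As a check of the labels, *Mfn1* had a mean normalized count of 1670.2 in the Ctrl group (SD 114, n = 6), 797 in double knockouts (SD 165, n = 5), 674 in β-Mfn1KO (SD 68.1, n = 4) and 1721 in β-Mfn2KO (SD 49.5, n = 5), and *Mfn2* had 3505 (SD 519), 2084 (SD 45.1), 4352 (SD 334) and 1577 (SD 80.5), values from whole islets that include cells without Cre. These counts are per gene, while Cre removes only the floxed exons. What the remaining counts come from was not tested. Normalized counts here are counts scaled by edgeR's TMM method to the mean library size. The p-values set differences between groups against the spread between these samples within groups.

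The regulatory sequences of the members that the results turn on are shown first. RefSeq promoters (GRCm38.p6) were found for 40 of the 46 members, and the 250 bases before each start were searched on both strands for the motifs of transcription factors known to act on respiratory chain genes. CGCNTGCG, a relaxed form of the centre of the NRF1 site where N is any base, was present in 10 of the 40 (25%). It was present in 6.94% of all 27025 promoters. The 10 were those of *Ndufa5*, *Ndufa8*, *Ndufa11*, *Ndufa12*, *Ndufaf2*, *Ndufaf4*, *Ndufb4*, *Ndufb10*, *Ndufs5* and *Ndufs6*. Of these 10 genes, *Ndufa8* and *Ndufaf4* passed the test in double-knockout islets given below, where 26.1% of all members and 29.3% of kept genes passed. The cyclic AMP response element TGACGTCA was present in 3 of the 40 (*Ndufa10*, *Ndufa11* and *Ndufb2*) against 1.62% of all promoters. CCGGAAGT (ETS factors, 2.93% of all promoters), AAGATGGCG (YY1, 0.607%) and TCAAGGTCA (estrogen-related receptors, 0.366%) were found in 0 of the 40, which says only that these letters are not in these windows. The median GC content was 58.2% in the 40 promoters and 52.0% in all.

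Shown here are *Ndufaf4*, the assembly factor that was higher in β-Mfn1/2DKO islets, *Ndufa1*, a complex I subunit whose fall against Ctrl passed in all fits, and *Ndufb2*, a subunit that fell and holds a cyclic AMP response element, each as the 250 bases before the start read 5′ to 3′ on the strand of the gene, with a searched motif in capitals. *Ndufaf4* lies at chr4:24897833-24898082 on the plus strand, *Ndufa1* at chrX:37191239-37191488 on the minus strand and *Ndufb2* at chr6:39592315-39592564 on the plus strand. For *Ndufa8*, a subunit that was higher, the CGCNTGCG match farther from the start is given with 10 bases on either side. It lies at chr2:36049350-36049377 on the minus strand and has T at the open position, while the match nearer the start reads CGCATGCG.
Ndufaf4: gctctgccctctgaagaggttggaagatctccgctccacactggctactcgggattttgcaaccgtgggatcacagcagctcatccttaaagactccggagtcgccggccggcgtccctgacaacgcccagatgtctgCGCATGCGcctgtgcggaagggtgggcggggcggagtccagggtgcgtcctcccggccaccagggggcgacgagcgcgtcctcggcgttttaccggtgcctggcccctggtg
Ndufa1: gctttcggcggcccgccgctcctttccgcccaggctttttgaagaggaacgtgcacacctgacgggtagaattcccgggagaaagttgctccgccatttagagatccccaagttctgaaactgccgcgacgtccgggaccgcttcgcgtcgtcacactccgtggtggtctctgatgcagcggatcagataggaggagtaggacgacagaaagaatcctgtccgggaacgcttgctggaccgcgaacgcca
Ndufb2: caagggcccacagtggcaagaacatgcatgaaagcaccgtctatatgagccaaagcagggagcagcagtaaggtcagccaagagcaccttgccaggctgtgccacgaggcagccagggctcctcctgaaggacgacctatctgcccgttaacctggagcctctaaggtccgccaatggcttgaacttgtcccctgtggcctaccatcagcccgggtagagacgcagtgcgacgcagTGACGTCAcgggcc
Ndufa8: tagagcagtgCGCTTGCGcgtcgctgga

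The first question was how strongly each member is expressed in Ctrl islets. On a scale of normalized counts per kilobase of the principal transcript, the highest level was that of *Ndufa4* (7340.3 ± 268, SD, n = 6), followed by *Ndufb8* in the far membrane arm (6706 ± 258) and *Ndufc2* near the joint (5585 ± 339). The lowest subunit of the enzyme was *Ndufb4* at 796 ± 61.9. On this scale all 8 assembly factors had lower means than every one of the 36 subunits, from *Ndufaf8*, the partner of the hydroxylase *Ndufaf5*, at 714 ± 111 down to *Ndufaf4*, which helps build the ubiquinone-binding part, at 207 ± 12.1. The order rests on the transcript chosen, which has 3632 bases for *Ndufaf4*. Not divided by length, the mean of *Ndufaf7* (994) was above that of *Ndufb4* (773). *Ndufa4l2*, which is known to be induced by low oxygen, was lowest at 29.1 ± 9.85.

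Core subunits did not share a level. Per kilobase, *Ndufv1*, which binds NADH, stood at 3035 ± 58.3, whereas the iron-sulfur subunits *Ndufs1* and *Ndufv2* stood at 1782 ± 58.6 and 1667 ± 37.5. Most neighbours in the order overlapped over the 6 libraries. The exceptions were the steps below *Ndufb8*, *Ndufa8*, *Ndufv2*, *Ndufaf7* and *Ndufaf4*, where the libraries of the higher gene all lay above those of the next. *Ndufb4* shares 17.2% of its 75-base stretches with the expressed pseudogene *Ndufb4c*, whose total counts are 126% of its own, and its level is uncertain for that reason. Larger shares were found in *Ndufaf2* (63.2%, with the non-coding gene *B230220B15Rik* at 18 counts in all), *Ndufb6* (27.8%, with *Smim27*) and *Ndufa13* (25.6%, with *Tssk6*), where the other gene had 0.196%, 4.90% and 5.70% of the member's counts. Their levels carry the same limit.

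**Figure D1:**
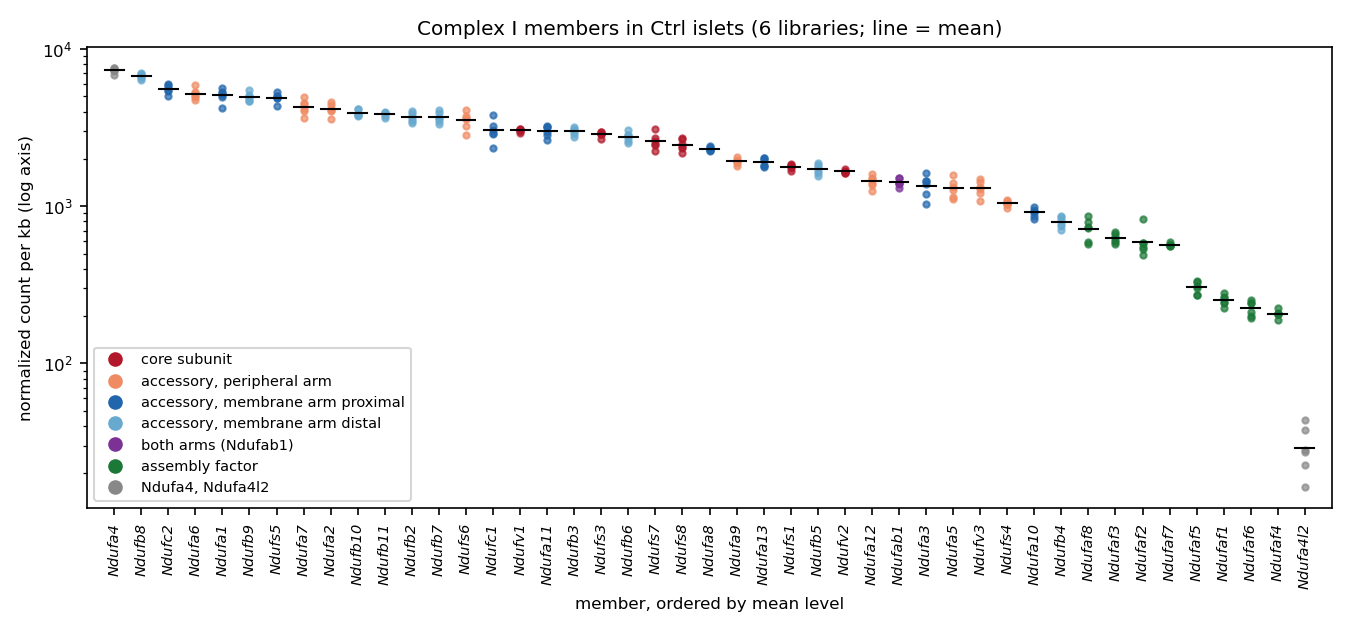
Level of 45 members in Ctrl islets, in normalized counts per kilobase of principal transcript on a log axis, ordered by mean; points are the 6 libraries, lines the means, and colours the place in the complex. The green assembly factors sit together at the low end, from 714 down to 207, below the means of all subunits of the enzyme drawn.

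In islets without both mitofusins, most of the nuclear complex I genes stayed near their Ctrl level, while a few subunits fell. In β-Mfn1/2DKO against Ctrl, 12 of 46 members passed an adjusted p of 0.05 in edgeR's quasi-likelihood test (26.1%, where 16.5% of all 28632 genes and 29.3% of the 15267 genes kept by filterByExpr passed), so the members were called about as often as other expressed genes. The 9 that fell included *Ndufa1*, *Ndufa3*, *Ndufa4*, *Ndufb2*, *Ndufb3*, *Ndufc1*, *Ndufc2* and *Ndufs1* (12.0% of kept genes fell), and the 3 that rose were *Ndufa8*, *Ndufa10* and *Ndufaf4* (17.3% of kept genes rose). The median log2 fold change was -0.01 over the 38 subunits and 0.06 over the 8 assembly factors, beside 0.04 over the kept genes. The summed level of the 36 subunits was 92272 ± 2312 normalized counts in Ctrl (SD, n = 6), 101129 ± 7678 in β-Mfn1KO (n = 4), 90842 ± 5923 in β-Mfn2KO (n = 5) and 88135 ± 7441 in β-Mfn1/2DKO (n = 5), with overlapping ranges.

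The split into rises and falls depended on the scaling. With total-count scaling, which moves the median of the kept genes from 0.04 to 0.17 on the log2 scale, 11 members rose and 3 fell, with *Ndufa1* and *Ndufa4* among the latter. With the per-gene normalization factors of the authors 7 rose and 6 fell. With all libraries drawn down to the smallest total 0 rose and 11 fell. The shares of all genes called in the same fits are not given beside these counts or later ones from alternative fits. Such counts describe how calls of members move with the fit, not a trait of these genes. The falls of *Ndufa1* and *Ndufa4* passed the test in all 16 alternative fits and without any of the 20 libraries in turn.

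**Figure D2:**
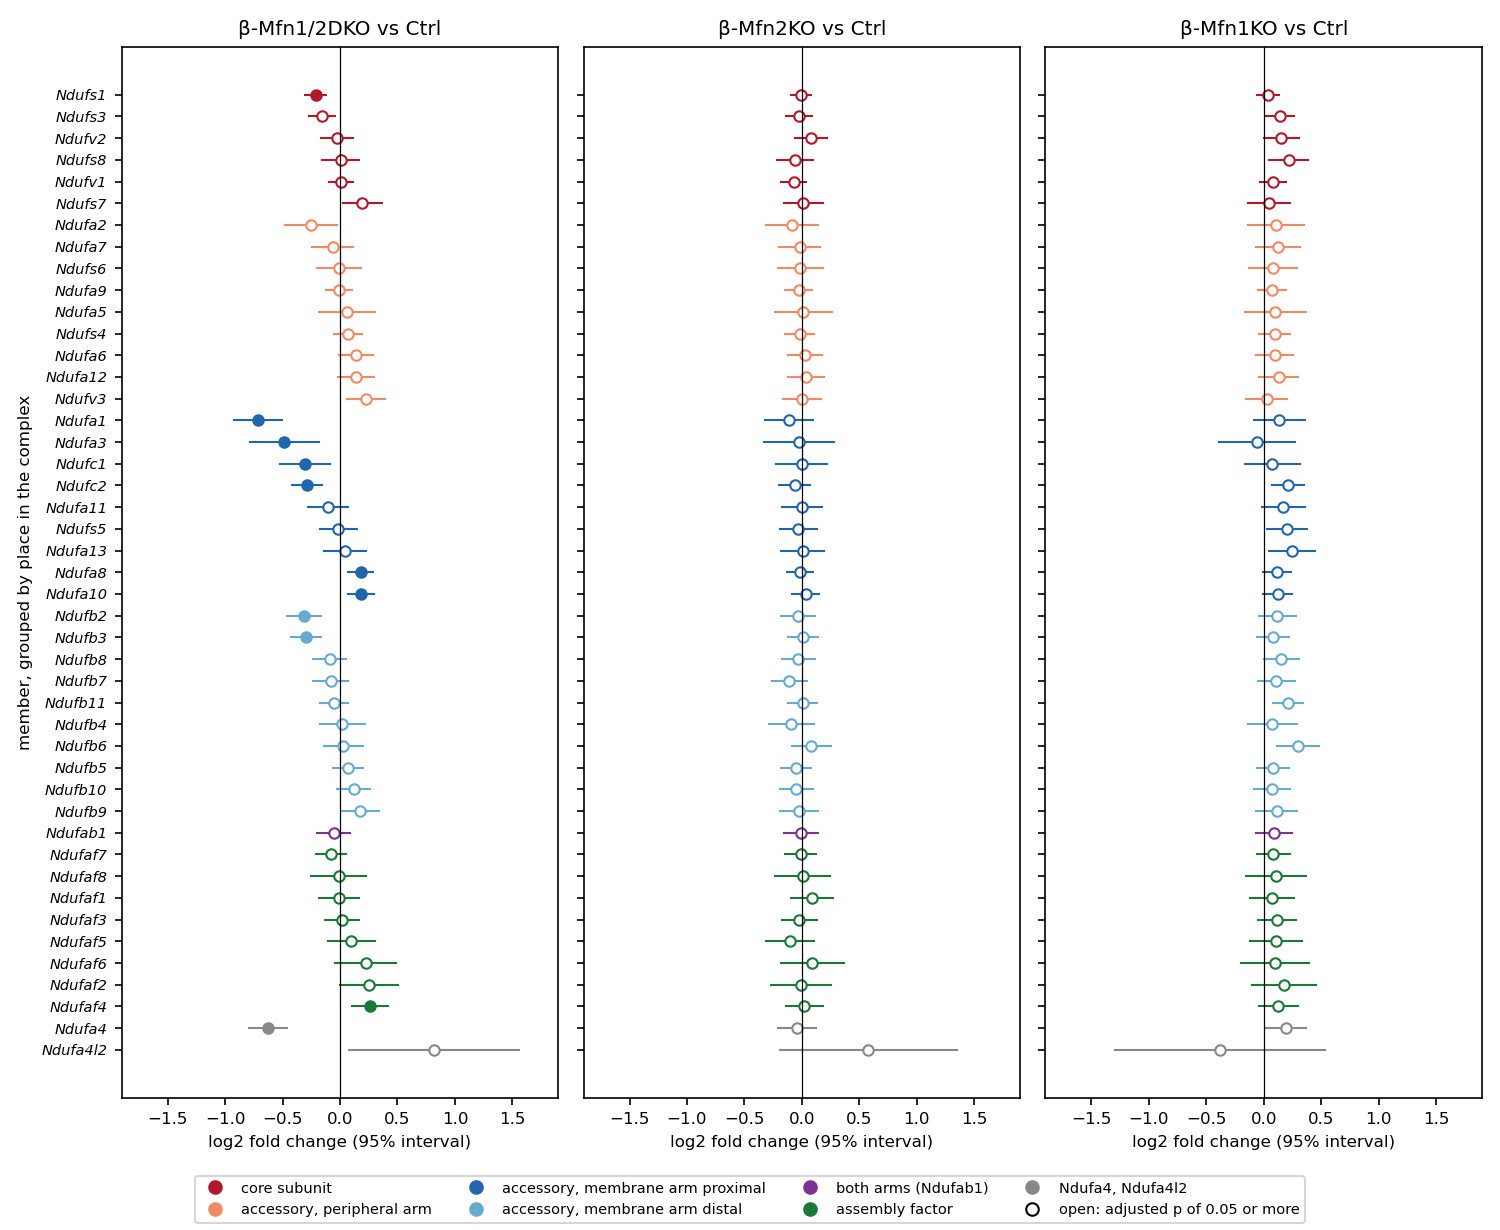
Log2 fold change of 45 members against Ctrl in β-Mfn1/2DKO, β-Mfn2KO and β-Mfn1KO islets, with 95% intervals, ordered by place in the complex; filled points passed an adjusted p of 0.05. The left panel holds 11 filled points, led by *Ndufa1* at -0.71 and *Ndufa4* at -0.63, and the other panels hold none.

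*Ndufa1*, an X-linked accessory subunit of the membrane arm (chrX:37187588-37191163 on GRCm38, minus strand) that is needed for assembly of the enzyme, showed the largest fall under TMM scaling, though not with the authors' factors, where *Ndufa4* fell further, or with depth class as a covariate, where *Ndufa3* did. Its normalized counts in Ctrl had a lowest value of 1764, a median of 2176 and a highest of 2355. In the 5 β-Mfn1/2DKO libraries they were 1263, 1498, 1221, 1355 and 1159. Every double-knockout library was below every Ctrl library. On the log2 scale its change was -0.71 with an SE of 0.10 (adjusted p = 2.7e-05 in the quasi-likelihood test of edgeR), a fall to 0.61 of the Ctrl level.

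The single knockouts did not show this fall. *Ndufa1* stood at 2554, 2593, 1984 and 2231 normalized counts in β-Mfn1KO and at 1687, 1872, 1586, 2298 and 2354 in β-Mfn2KO. Both groups overlapped Ctrl and neither reached the double-knockout range. Within β-Mfn2KO, replicates 4 and 5 lay above replicates 1 to 3, and these are the 2 deep libraries of that group, with 55962873 and 59533407 counts against at most 18919122 in the other 3. Of these 2, replicate 4 also had the group's highest share of acinar genes (1.14%). Replicate 5 had its highest shares of macrophage (0.0896%) and stellate genes (0.0338%). Set against those 2 alone, the double knockouts were lower by -0.79 on the log2 scale (adjusted p = 0.0028), compared with -0.60 (SE 0.10, adjusted p = 0.00036) against all 5. With the authors' factors the latter was -0.24 (adjusted p = 0.050).

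*Ndufa4* (chr6:11900292-11907497, minus strand), the subunit now assigned to cytochrome c oxidase, fell alongside it. Its normalized counts in Ctrl ran from 3097 through a median of 3343 to 3425. The β-Mfn1/2DKO libraries had 2036, 2323, 1998, 2333 and 2033, all below Ctrl and below every library of the other knockouts. The change was -0.63 on the log2 scale (SE 0.08, edgeR adjusted p = 6.2e-06). Against β-Mfn2KO (2748, 3259, 2719, 3658 and 3688) it was -0.59 (SE 0.08, edgeR adjusted p = 3.5e-05), and against β-Mfn1KO (3799, 4168, 3256 and 3922) it was -0.82 (SE 0.09, edgeR adjusted p = 8.4e-07).

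The paralog *Ndufa4l2* had low counts and did not pass. Its normalized counts were 15.2 to 40.5 in Ctrl with a median of 25.8, and 47.4, 47.0, 58.2, 44.7 and 43.0 in β-Mfn1/2DKO. All 5 double knockouts lay above all 6 Ctrl libraries (6.56% of all genes and 10.5% of kept genes did so), but with a log2 fold change of 0.82 (SE 0.36) the edgeR adjusted p was 0.13. It passed in 2 alternative fits, with only the groups compared (0.83, adjusted p = 0.030) and without the 5 libraries high in acinar, macrophage or stellate genes (1.06, adjusted p = 0.034), and in 0 of the 20 fits that left out a library. Those 5 libraries were Ctrl replicate 6 and replicates 4 and 5 of both β-Mfn2KO and β-Mfn1/2DKO. Replicates 3 and 5 of β-Mfn2KO, at 59.2 and 79.9, were higher than any double knockout. The gene overlaps *Shmt2* on the opposite strand over 32 bases, whose total counts are 5779% of its own. Whether counting used strand is not given in the sources used here.

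Near the joint of the arms, *Ndufa3*, *Ndufc1* and *Ndufc2* also fell, which with *Ndufa1* made 4 of the 9 members there (12.0% of kept genes fell). The calls of *Ndufa3* and *Ndufc1* were lost in several alternative fits. *Ndufa3*, a small accessory subunit, had normalized counts of 529, 726 and 837 in Ctrl (lowest, median and highest) and 467, 547, 486, 519.7 and 465 in β-Mfn1/2DKO. The highest double knockout thus overlapped the lowest Ctrl library. The log2 fold change of -0.48 (SE 0.14, edgeR adjusted p = 0.023) was lost with the authors' factors (-0.06, adjusted p = 0.78), with total-count scaling (-0.35, adjusted p = 0.12), without double-knockout replicates 4 and 5 together (-0.45, adjusted p = 0.099), and without Ctrl replicate 6 or any of the double-knockout replicates 1, 3 and 5.

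*Ndufc2*, a membrane subunit, was steadier. Its normalized counts ran from 3446 through 3821 to 4068 in Ctrl, and were 3093, 3367, 3189.6, 3200.0 and 2802 in β-Mfn1/2DKO. All 5 were below Ctrl, with a log2 fold change of -0.29 (SE 0.06, edgeR adjusted p = 0.0027). With total-count scaling it was -0.14 (adjusted p = 0.15). *Ndufc1*, a small subunit of the same region named here after its values were seen, had -0.31 (SE 0.10, edgeR adjusted p = 0.048). This call was lost in 8 of 16 alternative fits, among them total-count scaling (-0.17, adjusted p = 0.36), the authors' factors (-0.39, adjusted p = 0.15) and depth class (-0.59, adjusted p = 0.084), and it was kept in only 4 of the 20 fits that left out a library.

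The remaining calls of that region were in the other direction. *Ndufa8*, which faces the intermembrane space and is held by disulfide bonds, had normalized counts of 1936 to 2082 in Ctrl and 2304, 2446, 2150.3, 2357 and 2054 in β-Mfn1/2DKO. Of the 5, 4 lay above all Ctrl libraries (log2 fold change 0.18, SE 0.05, edgeR adjusted p = 0.022). *Ndufa10*, a matrix-facing subunit of nucleoside kinase fold, had 1675 to 2003 in Ctrl and 2019.5, 2270.2, 2067, 2213 and 1887 in β-Mfn1/2DKO, with a like log2 fold change of 0.18 (SE 0.05, edgeR adjusted p = 0.022). Both calls were lost with depth class as a covariate (0.09 and 0.11, adjusted p = 0.76 and 0.69). They were also lost in libraries drawn down to equal depth and with the size factors of DESeq2, and the call of *Ndufa10* without Ctrl replicate 1 or 2 and with offsets for length and GC content.

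In the peripheral arm 2 of 16 members passed, both lower (12.5%, where 29.3% of kept genes passed and 12.0% fell). *Ndufs1*, the largest subunit, which carries iron-sulfur clusters, fell evenly. Its normalized counts were 4366, 4658 and 4785 in Ctrl (lowest, median and highest) and 4016, 4177, 4094, 3944 and 3678 in β-Mfn1/2DKO, without overlap (4.04% of all genes and 7.33% of kept genes lay lower in this way). Its change was -0.21 on the log2 scale (SE 0.04, edgeR adjusted p = 0.0012). The call was lost with total-count scaling (-0.07, adjusted p = 0.39), with depth class as a covariate (-0.18, adjusted p = 0.30) and without the 5 libraries high in acinar, macrophage or stellate genes (-0.16, adjusted p = 0.059).

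Core subunits such as *Ndufs3*, *Ndufs7*, *Ndufs8*, *Ndufv1* and *Ndufv2* did not pass. The log2 fold changes of these ran from -0.16 in *Ndufs3* (SE 0.06, edgeR adjusted p = 0.058) to 0.19 in *Ndufs7* (SE 0.08, adjusted p = 0.12), which carries an iron-sulfur cluster near the ubiquinone site. *Ndufv1* and *Ndufv2*, the subunits of the NADH-oxidizing tip, had 0.01 (95% interval -0.10 to 0.11) and -0.03 (-0.17 to 0.11), and the iron-sulfur subunit *Ndufs8* had 0.00 (-0.15 to 0.16).

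The far membrane arm had 2 calls among 10 members, both lower (20%, where 29.3% of kept genes passed and 12.0% fell). *Ndufb3* had normalized counts of 2115 to 2448 in Ctrl and 1848, 2105, 1915, 1815 and 1630.5 in β-Mfn1/2DKO, and *Ndufb2* had 1551 to 1833 and 1369, 1485, 1362, 1411 and 1128. Neither overlapped Ctrl, although replicate 2 of the double knockouts came close to it in both. The log2 fold changes were -0.29 (SE 0.06) and -0.32 (SE 0.07), with adjusted p-values of 0.0018 and 0.0033 from edgeR. With total-count scaling neither passed (-0.15 and -0.17, adjusted p = 0.18 and 0.13). The *Ndufb2* value shrank to -0.12 with the authors' factors (adjusted p = 0.30), and that of *Ndufb3* was -0.20 without double-knockout replicates 4 and 5 (adjusted p = 0.058). The exons of *Ndufb2* overlap *Braf* on the opposite strand over 146 bases. *Ndufb8*, the most abundant subunit per kilobase, had -0.09 (95% interval -0.23 to 0.05).

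**Figure D3:**
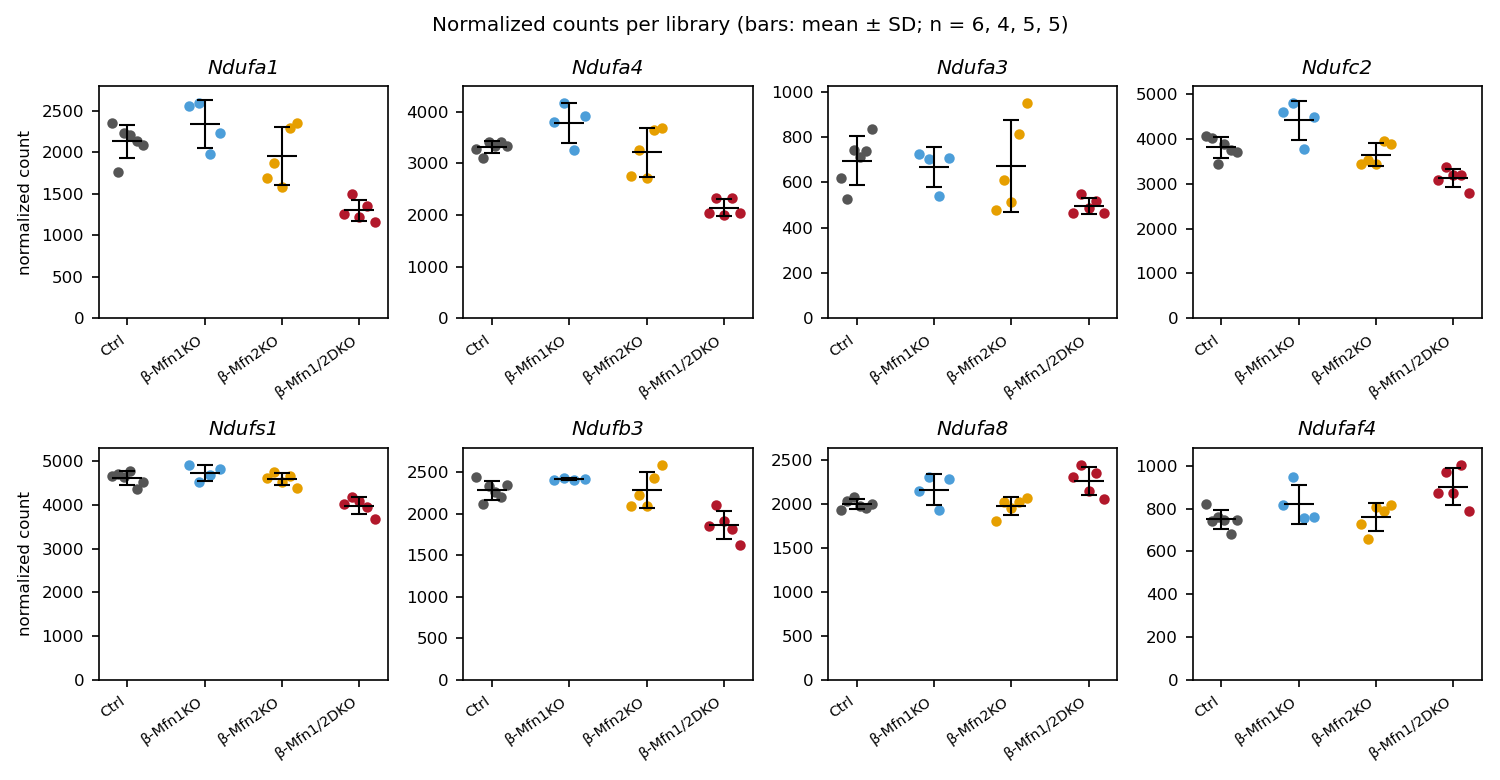
Normalized counts of 8 members in each library of the 4 groups; bars are the mean ± SD and every axis starts at 0. The β-Mfn1/2DKO points of *Ndufa1*, *Ndufa4*, *Ndufc2*, *Ndufs1* and *Ndufb3* lie below all Ctrl points, while those of *Ndufa3*, *Ndufa8* and *Ndufaf4* overlap them.

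Among the 8 assembly factors only *Ndufaf4* passed in β-Mfn1/2DKO against Ctrl. Its normalized counts were 682 to 819.9 in Ctrl, with a median of 747, and 874, 969, 871, 1006 and 789 in the double knockouts. Of the 5, 4 lay above all Ctrl libraries and replicate 5 lay within their range. Its change was 0.27 on the log2 scale (SE 0.08, edgeR adjusted p = 0.017). It was 0.13 with depth class as a covariate (adjusted p = 0.76) and 0.24 in libraries drawn down to equal depth (adjusted p = 0.077).

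*Ndufaf3*, the partner with which *Ndufaf4* works, had 0.02 (95% interval -0.13 to 0.17). *Ndufaf2*, which holds a late intermediate of the peripheral arm, had 0.25 (0.00 to 0.51, edgeR adjusted p = 0.18) and *Ndufaf6* had 0.22 (-0.04 to 0.49, adjusted p = 0.28). *Ndufaf1*, part of the membrane-arm assembly complex, had -0.01 (-0.18 to 0.17). *Ndufaf5*, which hydroxylates *Ndufs7*, had 0.10 (-0.10 to 0.30), and its partner *Ndufaf8* had -0.01 (-0.25 to 0.22). *Ndufaf7*, a methyltransferase, had -0.08 (-0.21 to 0.05). The summed level of the 8 was 4602 ± 157 normalized counts in Ctrl, 4966 ± 432 in β-Mfn1KO, 4590.1 ± 331 in β-Mfn2KO and 4848 ± 354 in β-Mfn1/2DKO.

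Of a list of 14 assembly factors without the Nduf name, 13 were in the table and 2 passed in β-Mfn1/2DKO against Ctrl (29.3% of kept genes did). *Nubpl*, which delivers iron-sulfur clusters to the enzyme, rose from 361 ± 44.7 normalized counts (SD, n = 6) to 436 ± 37.6 (n = 5), a log2 fold change of 0.28 (SE 0.09, edgeR adjusted p = 0.038). *Foxred1*, an assembly factor of oxidoreductase fold, fell from 1313 ± 67.1 to 1189 ± 33.9 (-0.14, SE 0.05, edgeR adjusted p = 0.033). Against β-Mfn1KO, 2 of the 13 were lower (13.5% of kept genes were), *Foxred1* (-0.21, SE 0.05) and *Tmem126b* (-0.19, SE 0.06), which belongs to the same assembly complex as *Ndufaf1*. The list gave 0 calls in edgeR against β-Mfn2KO (4 of the 13 had an unadjusted p under 0.05), where 23.0% of kept genes were called.

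Values for the nuclear and the mitochondrial parts of the complex are set side by side here, as a description. All 7 *mt-Nd* mRNAs were lower in β-Mfn1/2DKO than in Ctrl, with a median log2 fold change of -1.87, while the 36 nuclear subunits had a median of -0.01. Summed *mt-Nd* counts were 3.41 ± 0.40 times the summed counts of the 36 nuclear subunits in Ctrl (SD, n = 6), 3.02 ± 0.55 times in β-Mfn1KO, 2.08 ± 0.20 times in β-Mfn2KO and 1.07 ± 0.19 times in β-Mfn1/2DKO. The β-Mfn2KO libraries reached at most 2.38 and the lowest Ctrl library had 2.68, so these ratios did not overlap. The nuclear sums did overlap, as given above.

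Annotation decided the membership of a further subunit. The mouse gene *Ndufb1-ps*, named as a pseudogene by its symbol and typed as a non-coding RNA at a bidirectional promoter in the annotation, had 516 ± 75.3 normalized counts in Ctrl and 332 ± 35.1 in β-Mfn1/2DKO, a log2 fold change of -0.63 (SE 0.16, edgeR adjusted p = 0.0060). It is not counted among the 46.

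The second comparison set β-Mfn1/2DKO against β-Mfn2KO, that is, the loss of *Mfn1* where *Mfn2* is absent. It gave 10 calls among 46 members (13.0% of all genes and 23.0% of kept genes), with 8 lower (10.1% of kept genes) and 2 higher (12.9%). The 8 included *Ndufa1*, *Ndufa3*, *Ndufa4*, *Ndufb2*, *Ndufb3*, *Ndufc2* and *Ndufs1*, with log2 fold changes from -0.60 in *Ndufa1* to -0.20 in *Ndufs1*, and the 2 were *Ndufa8* (0.20, SE 0.06) and *Ndufaf4* (0.24, SE 0.08). Only 4 of the 8 had no overlap between groups (*Ndufa1*, *Ndufa4*, *Ndufc2* and *Ndufs1*; 5.26% of all genes and 9.12% of kept genes lay lower without overlap). Of the members named, *Ndufa4* alone passed in all 17 alternative fits. The calls of *Ndufa3*, *Ndufc2* and *Ndufaf4* were lost in 14, 6 and 5 of the 20 fits that left out a library, and that of *Ndufc2* also in 5 of the 17 alternatives. Without β-Mfn2KO replicate 4 there were 6 calls, and with total-count scaling 8 members rose and 3 fell. This comparison has the β-Mfn1/2DKO libraries in common with the others, so its calls are not independent of theirs.

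Against β-Mfn1KO, the loss of *Mfn2* where *Mfn1* is absent, 14 of 46 members were lower and 0 higher (17.4% of all genes and 31.0% of kept genes were called; 13.5% of kept genes were lower). The median over the members was -0.13, and that over the kept genes 0.04. Kept genes with a principal transcript under 600 bases had a median of -0.20 with 21.3% lower. The 11 members of that length had -0.36 with 6 lower. At 600 to 999 bases the kept genes had -0.05 with 15.6% lower, and the 16 members -0.09 with 5 lower. Members called here and in neither of the comparisons above, a difference that was not tested, were *Ndufs3* (-0.30, SE 0.06, edgeR adjusted p = 0.0013) and *Ndufb8* (-0.24, SE 0.08, adjusted p = 0.030), together with *Ndufa2*, *Ndufa11*, *Ndufb6* and *Ndufb11*, named here after their values were seen, with log2 fold changes of -0.36, -0.27, -0.27 and -0.27. The call of *Ndufb8* was lost in 7 of 16 alternative fits and that of *Ndufs3* in 1. With total-count scaling 6 rose and 5 fell. There were 9 calls without either of β-Mfn1KO replicates 1 and 2 and without any of β-Mfn1/2DKO replicates 1, 3, 4 and 5, and 8 without double-knockout replicates 4 and 5 together.

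The single knockouts gave no calls. For β-Mfn2KO against Ctrl, 0 of 46 members passed in edgeR or DESeq2 and 0 had an unadjusted p under 0.05 (0.0559% of all genes and 0.105% of kept genes passed, and 4.22% and 4.54% had an unadjusted p under 0.05). The members' log2 fold changes had a median of -0.01, and for the 36 subunits they ran from -0.11 to 0.08. Over the same libraries 5 of the 7 *mt-Nd* mRNAs were lower.

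For β-Mfn1KO against Ctrl, 0 members passed in either tool, but 44 of 46 estimates lay above 0, with a median of 0.11 beside 0.00 over the kept genes. Kept genes with a principal transcript under 600 bases had a median of 0.073, beside 0.119 in members of that length. At 600 to 999 bases the medians were 0.095 and 0.111. An unadjusted p under 0.05 was reached by 10 members, all higher (7.44% of all genes and 10.6% of kept genes reached it, and 0.0279% and 0.0524% passed the adjusted threshold). Among them were the core subunits *Ndufs3* (0.14, SE 0.06), *Ndufs8* (0.22, SE 0.08) and *Ndufv2* (0.15, SE 0.07), with edgeR adjusted p-values of 0.64, 0.60 and 0.67. The members were measured in the same libraries and do not vary independently. The median was 0.08 with total-count scaling and 0.02 with offsets for transcript length and GC content.

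Whether the loss of *Mfn1* acted differently with and without *Mfn2* was tested as an interaction, the β-Mfn1/2DKO minus β-Mfn2KO change less the β-Mfn1KO minus Ctrl change. It passed for 7 of 46 members, all negative (5.92% of all genes and 10.9% of kept genes passed, 3.03% and 5.55% in that direction). The values included -0.78 (SE 0.12) in *Ndufa4*, -0.74 (SE 0.15) in *Ndufa1*, -0.43 (SE 0.09) in *Ndufc2*, -0.40 (SE 0.11) in *Ndufb2*, -0.38 (SE 0.09) in *Ndufb3* and -0.24 (SE 0.06) in *Ndufs1*. For *Ndufa4*, the change on loss of *Mfn1* was 0.19 where *Mfn2* was present and -0.59 where it was absent. *Ndufa1* and *Ndufa4* passed in all 15 alternative fits and without any of the 20 libraries in turn. They were among the 3 calls left with total-count scaling. Calls were lost in 6 of the 15 for *Ndufs1*, 5 for *Ndufb2*, 3 for *Ndufb3* and 2 for *Ndufc2*.

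Transcript length was then set beside the changes. Of the 11 members with a principal transcript under 600 bases, 5 fell and 0 rose in β-Mfn1/2DKO against Ctrl, with a median log2 fold change of -0.26. The 399 kept genes of that length had a median of -0.13, with 15.8% lower and 8.77% higher. The 16 members of 600 to 999 bases had a median of 0.03, beside 0.04 over the 1038 kept genes of that length. *Ndufa1* (419 bases), *Ndufa4* (452 bases) and *Ndufb2* (455 bases) belong to the short class, while *Ndufs1* (2590.0 bases) does not. Against β-Mfn2KO, kept genes under 600 bases had a median of -0.15 with 16.5% lower, and the 11 members -0.17 with 4 lower.

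Because short genes as a class were lower too, a fit was made with offsets for length and GC content in each library, chosen after the data were seen. It left *Ndufa1* at -0.62 (SE 0.06, edgeR adjusted p = 2.3e-07), *Ndufa4* at -0.52 (SE 0.05, adjusted p = 1.3e-07) and *Ndufa3* at -0.44 (SE 0.10, adjusted p = 0.0040), and gave 12 falls and 4 rises in all.

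**Figure D4:**
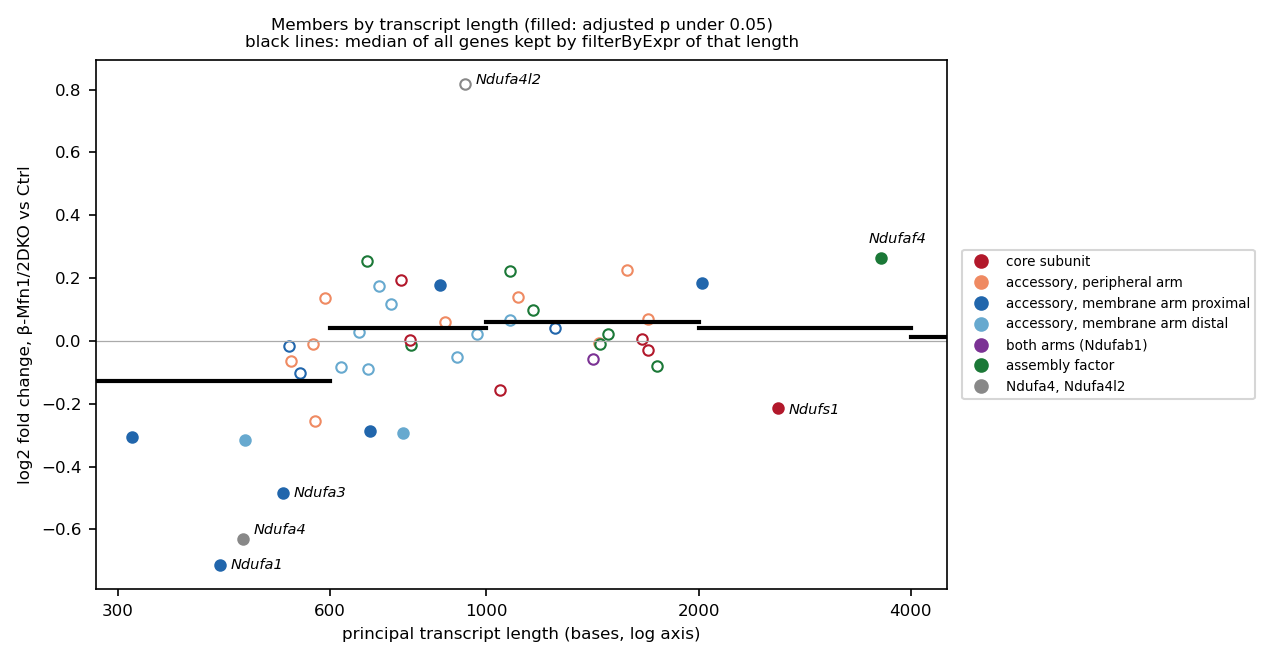
Log2 fold change of 45 members in β-Mfn1/2DKO against Ctrl by the length of the principal transcript on a log axis; filled points passed an adjusted p of 0.05, colours give the place in the complex, and black lines are the medians of the kept genes in each length class. *Ndufa1*, *Ndufa4* and *Ndufa3* sit low on the left, below the median of -0.13 for genes under 600 bases, and *Ndufs1* sits below 0 on the right.

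The per-gene factors in the second deposited table also moved with these genes. Relative to the median of each library, the log2 factor of *Ndufa1* was -0.31 to -0.23 in β-Mfn1/2DKO and -0.22 to 0.27 in Ctrl, and that of *Ndufa3* was -0.50 to -0.17 and -0.25 to 0.26. The factors of *Ndufa1* thus separated the groups, while those of *Ndufa3* overlapped. With them as offsets the fall of *Ndufa1* was -0.37 (SE 0.07, edgeR adjusted p = 0.0012) and that of *Ndufa4* was -0.51 (SE 0.07, adjusted p = 1.2e-05). What the authors' step corrects for is not given in the sources used here.

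Depth and other cells could be checked only in part. With depth class as a covariate, where the deep class holds all 5 β-Mfn1/2DKO libraries and β-Mfn2KO replicates 4 and 5, *Ndufa1* was at -1.15 and *Ndufa4* at -0.97, and 7 members fell and 0 rose. Only β-Mfn2KO holds both depth classes, and its deep libraries are also among those high in acinar, macrophage or stellate genes. Without β-Mfn1/2DKO replicates 4 and 5, the libraries highest in acinar genes, *Ndufa1* was at -0.66 and *Ndufa4* at -0.62, and 6 members rose and 6 fell. The part of the lower β-cell share in these values was not tested.

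**Figure D5:**
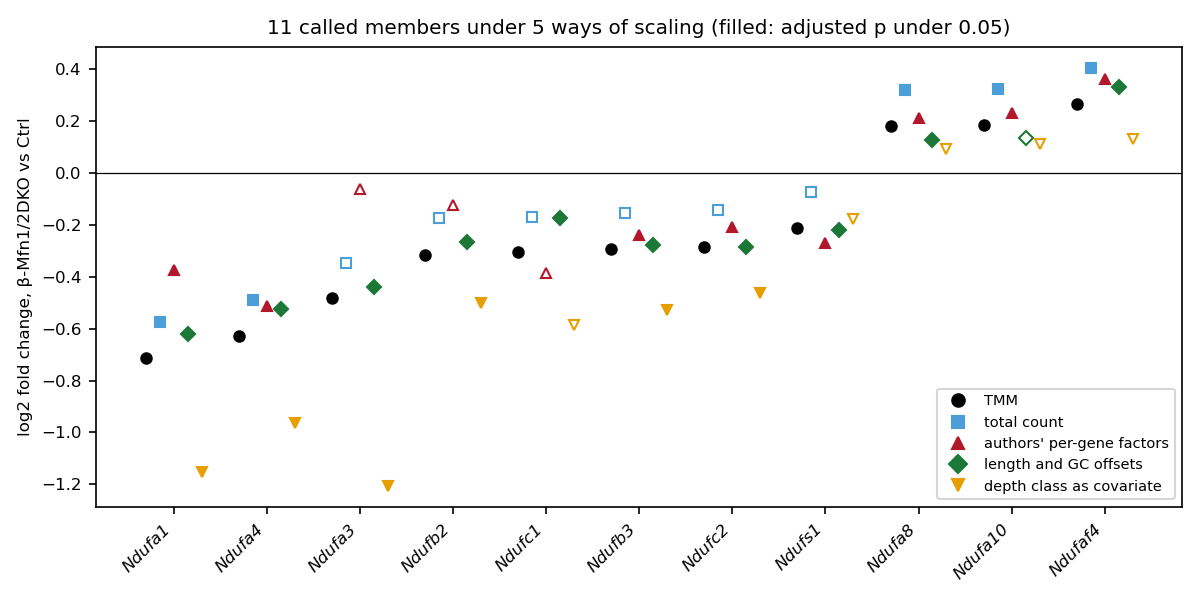
Log2 fold change in β-Mfn1/2DKO against Ctrl of 11 called members under 5 ways of scaling or adjustment; filled symbols passed an adjusted p of 0.05. *Ndufa1* and *Ndufa4* are filled under all 5, *Ndufa3* runs from -0.06 to -1.21, and no member changes sign among these 5.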

How the data were processed

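RNA was sequenced from whole islets of 20 mice aged 12 weeks, as 6 Ctrl, 4 β-Mfn1KO, 5 β-Mfn2KO and 5 β-Mfn1/2DKO libraries, grouped by the labels. Per the labels and methods, the authors trimmed paired-end reads with cutadapt 2.3, checked them with FastQC 0.11.8, aligned them to GRCm38 with STAR 2.6.1b and estimated counts per gene with RSEM 1.3.1. The deposited table holds these estimated counts as whole numbers. A second deposited table holds a signal, the counts divided by per-gene normalization factors of the authors' DESeq2 1.26.0, and was used only to recover those factors (0 sample columns were left unused).

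Counts of all 28632 genes were tested with edgeR 4.0.16 (R 4.3.3): TMM, estimateDisp, glmQLFit and glmQLFTest in a single fit over 20 libraries with a coefficient per group and no covariate (6.239 prior degrees of freedom), with Benjamini-Hochberg adjustment over all genes. The threshold for a call was an adjusted p of 0.05. SE is the absolute log2 fold change over the root of F. Totals of 12400687 to 122947313 counts per library set the precision. Symbols, types, lengths and overlaps came from GENCODE mouse release 21, and promoters from RefSeq. The letters of the NRF1 and YY1 motifs were shortened after a first search with longer forms had been seen, and the CGCNTGCG form of NRF1 is found in more promoters than the longer one. Alternatives were DESeq2 1.42.0, other scalings, filters, covariates, depths and left-out libraries. The scripts were tested on simulated data.

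Genes given in full were core subunits, the 8 assembly factors, *Ndufa4* and *Ndufa4l2*, the highest subunit and called subunits of largest change with a mean normalized count of 10 or more. A member was kept in every fit and count and is not reported here. Members, lists and tests were chosen with earlier results of these data known.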

Additional observations from a re-analysis of the deposited data

Results flagged for a closer look

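In 9 of 100 groups of named members, a library lay apart from the others by Dixon's test, where chance marks about 1 in 20. *Ndufa10* had 2031 normalized counts in β-Mfn2KO replicate 5, with the others at 1823 to 1857. *Ndufa3* had 539 in β-Mfn1KO replicate 3 (others 704 to 726), and in the same library *Ndufs3* had 2883 (others 3414 to 3493). *Ndufa4l2* had 58.2 in β-Mfn1/2DKO replicate 3 (others 43.0 to 47.4) and *Ndufaf5* had 328 in β-Mfn1/2DKO replicate 5 (others 388 to 402). Among Ctrl libraries, *Ndufaf2* had 560.4 in replicate 6 (others 331 to 396), *Ndufaf7* had 1042 in replicate 4 (others 973 to 996), *Ndufs3* had 2817 in replicate 3 (others 3005 to 3094) and *Ndufv1* had 4855 in replicate 1 (others 5027 to 5118).

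The effect of losing *Mfn1* differed with the state of *Mfn2* in 7 of 46 members by edgeR's interaction term (5.92% of all genes and 10.9% of kept genes passed). Several of these calls were lost in alternative fits, and depth cannot be told apart from loss of both genes, as given above. The values included -0.78 on the log2 scale in *Ndufa4* (adjusted p = 0.00039), -0.74 in *Ndufa1* (0.0041), -0.43 in *Ndufc2* (0.0071), -0.38 in *Ndufb3* (0.015), -0.40 in *Ndufb2* (0.027) and -0.24 in *Ndufs1* (0.027).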

How the results depend on the processing

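The count of 11 called subunits in β-Mfn1/2DKO against Ctrl was 7 with depth class as a covariate and 9 to 12 with a library left out in turn. The median log2 fold change over all 38 subunits, -0.01, was -0.21 with depth class, 0.13 with total-count scaling and -0.03 to 0.04 with a library left out. The count of 1 assembly factor was 2 with total-count scaling, with length and GC offsets, without the 5 libraries high in acinar, macrophage or stellate genes and without Ctrl replicate 6, 0 with depth class and with counts drawn down to the smallest total, and 1 to 2 over the left-out libraries. The 10 calls against β-Mfn2KO were 5 with deep libraries only and 6 to 12 with a library left out, lowest without β-Mfn2KO replicate 4. The 14 calls against β-Mfn1KO were 9 with the authors' factors, 8 with the acinar score as a covariate, 8 without β-Mfn1/2DKO replicates 4 and 5, and 9 to 20 with a library left out. The 7 calls of the interaction were 3 with total-count scaling, 4 without β-Mfn1/2DKO replicates 4 and 5, 3 without those 5 libraries and 5 to 10 with a library left out. A further threshold of a 1.5-fold change left 2 subunits and 0 assembly factors against Ctrl, 2 members against each single knockout and 2 in the interaction. *Ndufa3* in β-Mfn1/2DKO against β-Mfn2KO went from -0.46 to 0.12 with the authors' factors, so its direction there depends on them. The counts of 0 for each single knockout against Ctrl stayed 0 in 17 alternatives and over 20 left-out libraries. The 17 include the 1.5-fold threshold, which cannot raise a 0, and some left-out libraries were in neither group compared. The causes of these moves were not tested.

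With the replicate number as a block, 2 assembly factors were called in β-Mfn1/2DKO against Ctrl, and in all 6 members rose and 8 fell. The block changed no other count by over 1.5 times. Libraries of the same number had correlated deviations (r over 0.1) in 16 of 27 pairs, with a mean of 0.125 and a lowest value of -0.126. Pairs of different numbers had a mean of -0.027. In every group the lower numbers were female and the higher ones male. What the numbers stand for is not given in the sources used here, and the main fit did not pair the samples by them.

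Depth limits *Ndufa4l2* most, since its lowest count in a library was 5. The offsets for length and GC, the fit without 5 libraries and the fit on deep libraries were chosen after the data were seen.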
